A study of Drosophila melanogaster with 3 samples.

Results

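Of the 21656 candidate peaks called on the pooled CG4820 libraries, 1341 (6.19%) had their summit in annotated coding sequence or a 3' UTR and more than 500 bp from every annotated transcription start site (TSS). They were chosen from position alone: 922 summits lay in coding sequence of at least 1 transcript, and 419 lay in a 3' UTR and in no coding sequence. The optimal list of reproducible peaks held 42 of them, 10 coding and 32 in 3' UTRs.

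The study mapped by chromatin immunoprecipitation and sequencing (ChIP-seq) where the Drosophila melanogaster protein CG4820 sits on DNA. There is 1 group, CG4820-GFP, with 3 biological replicates: whole embryos aged 0 to 16 h, males and females pooled, from a single transgenic line that stably carries CG4820 with GFP at its C terminus. An anti-GFP antibody pulled down the tagged protein from chromatin sonicated to between 200 and 800 bp. The control library is not used here, so every comparison is between places in the genome. The replicates are samples of 1 line. P-values over them rest on 3 differences and here reflect only whether those share a sign, not how widely they spread. Whole embryos mix all cell types, so a peak of few cells and a weak peak of many cannot be told apart.

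CG4820 is a zinc-finger protein: the annotated protein matches the C2H2 finger pattern 3 times. C2H2 fingers usually read DNA letters, and such proteins are often found at promoters and enhancers. Coding exons and the 3' UTR, which follows the stop codon and carries the signals for messenger RNA processing, hold regulatory elements less often. CTCF, a C2H2 protein of many fingers, is an insulator protein that binds a long GC-rich motif and helps to fold chromosomes into domains. Its occupancy was not measured here, and the letters below are only letters.

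The sequences shown first are the letters that recurred at coding summits of the optimal list, strong and weak, with those from 3' UTR members after them. Within 50 bp of the summit, 5 of the 10 coding members on the optimal list and 3 of the 32 in 3' UTRs held the core of the Drosophila CTCF motif, AGNNGGCGC, on either strand, whereas 1.47% of all candidates did. Each line gives the host gene and 30 bases of dm6 sequence, 5' to 3' on the named strand, from the RefSeq genome of that assembly, with the core in capitals. HisRS has a pair of cores on opposite strands that overlap each other, and the cores of otp and Cam are not printed. Hr4 and raskol are 3' UTR members, and the + strand core of Pde1c, a coding member, lies in its 3' UTR.
Pde1c, chr2L:11816529-11816558, + strand: gctggccgccAGGTGGCGCaattgtcccct
Pde1c, chr2L:11816557-11816586, - strand: cggagccggcAGATGGCGCtgcggcctaag
klar, chr3L:506153-506182, - strand: gacacttgcaAGGAGGCGCgctgtgagata
Ubr1, chrX:16967621-16967650, + strand: tgcactcggcAGGGGGCGCcacaacgacgt
HisRS, chrX:18517602-18517631, + strand: gcaacgttccAGACGGCGCcctctggcggc
HisRS, chrX:18517606-18517635, - strand: gtccgccgccAGAGGGCGCcgtctggaacg
Hr4, chrX:2005999-2006028, - strand: ctctaaatacAGGTGGCGCcactgaggaat
raskol, chrX:17751916-17751945, + strand: attcaagagtAGAGGGCGCcgcttactttt

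The other 5 coding members on the optimal list held no such core, and each of their summits lay within 25 bp of the end of its coding stretch. The lines below show 15 bases to either side of that end, 5' to 3' on the strand of the gene, with coding bases in capitals. The lower-case side is 3' UTR in CG10357 and TpnC73F, intron in bif and l(3)mbn, and 5' UTR in CG4080.
CG10357, chr3L:3616535-3616564, + strand: AACTCACATTTCTGAttttacttgtcgcac
TpnC73F, chr3L:17047979-17048008, + strand: ATGACTGGCGAGTAAataaacgcaatgcgt
bif, chrX:11681703-11681732, + strand: ttttttttctaacagATTTCACAGAACCGG
l(3)mbn, chr3L:6124792-6124821, - strand: CCGGAAATGTACCCTgtaagtgataagagg
CG4080, chr3L:9398572-9398601, - strand: cgagttacgaacaaaATGCCTTGCGACAAC

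Peak strength is given as the deposited signal, which orders peaks within a list. Read totals are not given, so depth is unknown, and intervals on shares (95%, Wilson) cover counting error over peaks only. The replicate lists held 26597, 27004 and 26145 candidates for replicates 1, 2 and 3, and the optimal list 4876. Each optimal peak has the interval and summit of a pooled candidate, and together they are the 4876 candidates of highest pooled signal: the lowest on the list has signal 100.8 and the pooled median is 52.2. Reaching the optimal list therefore means, in these files, passing that signal. All coordinates are dm6, and gene parts are those of Ensembl release 115.

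Candidates in coding exons and 3' UTRs reached the optimal list less often than candidates elsewhere. The share was 1.08% (0.590 to 1.98) for the 922 coding members and 7.64% (5.46 to 10.6) for the 419 in 3' UTRs, or 3.13% (2.33 to 4.21) of all 1341, beside 22.5% of all candidates. Where the summit had to lie at least 50 bp inside its stretch, the coding share was 0.587% (4 of 681, 0.229 to 1.5). Among the other candidates over 500 bp from a TSS, the share was 20.0% in introns, 17% between genes, 14% in 5' UTRs and 24.1% in exons of non-coding transcripts. Distances beyond 500 bp were not matched. In this comparison the intervals of the coding and the 3' UTR share overlapped neither each other nor, for coding sequence, that of any other place. Within 500 bp of a TSS the order of the gene parts was the same, with 9 of 376 coding candidates (2.39%) and 35 of 165 in 3' UTRs (21.2%) on the list. The share over all candidates within 500 bp was 32.6%.

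Candidates were also sparse in these sequences per base. Coding sequence over 500 bp from a TSS spans 18.5 Mb and held 49.9 candidates and 0.541 optimal peaks per Mb. The 5.82 Mb of 3' UTR held 72.0 candidates and 5.50 optimal peaks per Mb. The remaining sequence at that distance held 151 candidates and 28.7 optimal peaks per Mb. No correction for mappability was made.

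**Figure D1:**
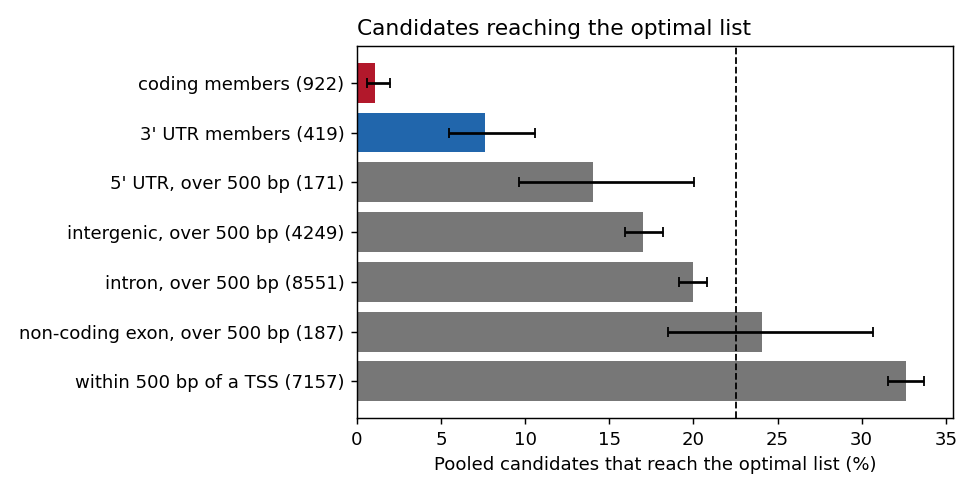
Share of pooled candidates on the optimal list by the place of their summit, in percent, with 95% Wilson intervals as error bars, the number of candidates in brackets and the share over all candidates (22.5%) as a dashed line. The coding share is 1.08% and the 3' UTR share 7.64%, both left of the bars for the other places.

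A handful of coding summits nevertheless stood far above the rest. The highest was in otp, which encodes the homeodomain protein Orthopedia, with pooled signal 984 and rank 98 among all candidates. Its peak, chr2R:20884433-20884740, lies in the last of 8 exons, 105 bases before the stop codon and 4667 bp from the nearest TSS. In replicates 1, 2 and 3 it ranked 136, 102 and 73, so it was among the strongest peaks of every library.

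Pde1c, which encodes a calcium- and calmodulin-dependent cyclic nucleotide phosphodiesterase, came next with signal 492 and ranks 342, 309 and 591. The peak, chr2L:11816465-11816712, also lies in the last exon, with its summit 22 bases from the stop codon. Both genes have their summit in coding sequence in all 9 transcripts that cover it. One of the Pde1c cores lies in coding sequence and the other in the 3' UTR just past the stop.

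The remaining coding members that every replicate supported were CG10357, klar and l(3)mbn. CG10357 (chr3L:3616474-3616600) had signal 291 and ranks 1756, 1138 and 827. klar, which encodes the nuclear envelope protein Klarsicht that positions nuclei, had signal 253 at chr3L:505997-506412 and ranks 2445, 1263 and 1044. For l(3)mbn (chr3L:6124618-6125033) the signal was 165 and the ranks were 1693, 3137 and 3340. A replicate supports a candidate here where 1 of its own 4876 highest-signal summits lies within 100 bp, and all of these ranks pass that limit.

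The other 5 coding members passed in the pooled list but not in every replicate. bif, which encodes a cytoskeletal protein of the photoreceptor, had signal 166 (chrX:11681529-11681944) and ranked 15509, 2359 and 2696, so replicate 1 stood apart from the other two. CG4080 (signal 111, chr3L:9398355-9398770) ranked 5920, 3704 and 4812, also short in replicate 1. Ubr1, for an E3 ubiquitin ligase of the N-degron pathway, had signal 109 (chrX:16967394-16967809), no summit within 100 bp in replicate 1, and ranks 4427 and 2710 in replicates 2 and 3. TpnC73F, for a muscle troponin C, had signal 108 (chr3L:17047778-17048193) and ranks 3899, 4635 and 9253. HisRS, for histidyl-tRNA synthetase, was last with signal 106 (chrX:18517401-18517816) and ranks 11646, 5680 and 2917, within the limit in replicate 3 alone. Its summit is in coding sequence in 2 of the 5 transcripts that cover it, and for the other 9 members it is so in every covering transcript.

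**Figure D2:**
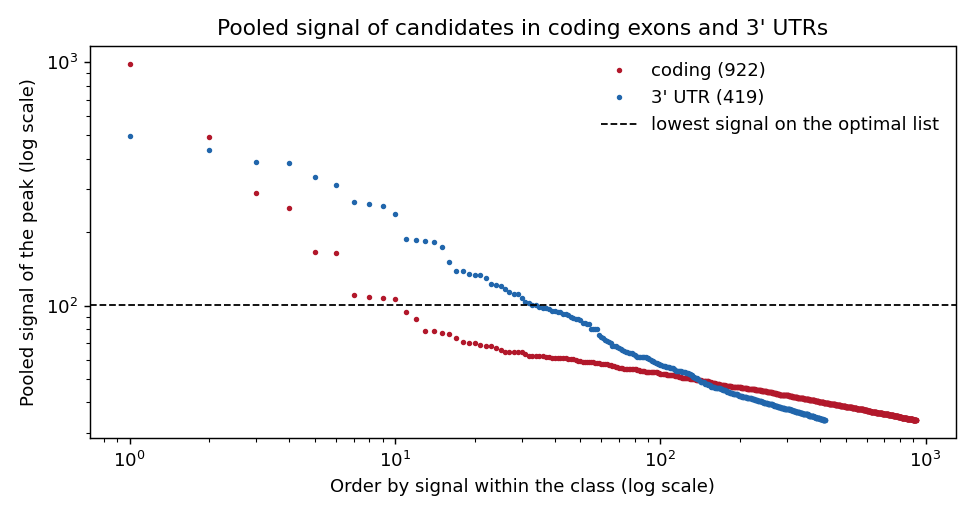
Pooled signal of the 922 coding and 419 3' UTR members, ordered by signal within each class on log axes, with the lowest signal of the optimal list as a dashed line. A few coding members, led by otp at 984, lie far above the line and most of the class lies far below it, whereas the 3' UTR members cross it after 32.

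The strongest 3' UTR member was in CG33307 (chr2L:13839716-13840131), with signal 497 and ranks 283, 405 and 563 in replicates 1, 2 and 3. It lies in a 3' UTR in 1 of the 2 transcripts that cover it. CG7872 (chrX:15579697-15579916) had signal 437 and ranks 572, 561 and 431. Neither the pooled rank (383 and 494) nor the replicate ranks of these members came near the limit of 4876.

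Cals, which encodes the calcium-binding cell-surface protein calsyntenin, had signal 389 (chr4:1113240-1113457) and ranks 688, 592 and 632. It was the 1 member of 27 on the small chromosome 4 that reached the list (3.70%). Of all 186 candidates on that chromosome, 20 did (10.8%), and of all members 3.13%. APC7, for a subunit of the anaphase-promoting complex, had signal 383 (chrX:6599399-6599592) and ranks 860, 519 and 653. Tctp, for the growth-linked translationally controlled tumour protein, had signal 337 (chr3R:11211742-11211903) and ranks 768, 816 and 1251. This summit lies 4734 bp from CG4820 itself (chr3R:11216535-11217898, + strand), which held no member. Whether the transgene carries this stretch, and in how many copies, was not tested. All 3 rank within the first 1251 in each library.

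Further down, by, which encodes tensin, a link between integrins and actin, had signal 313 (chr3R:9528565-9528725) and ranks 1186, 902 and 930. NetB, for the axon guidance cue Netrin-B, had signal 266 (chrX:14689219-14689395) and ranks 1474, 1590 and 887. The next 3, scf, CG9837 and stas, had signals of 261, 257 and 237, and every replicate ranked them within its first 1796. Then came CG1636, CG5895, CG9500, pros and REG, with signals between 188 and 174. pros encodes the homeodomain protein Prospero of neural differentiation, and its peak (chr3R:11392784-11393199, ranks 2572, 2054 and 2447) lies 895 bases past the stop codon, in a 3' UTR stretch of 15530 bases. REG encodes a proteasome activator and ranked 2138, 2784 and 2702. All 15 of these 3' UTR members were supported by every replicate.

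The other 17 had signals from 152 (CG10222) to 103 (Octalpha2R). They include calmodulin (Cam, 138), the Toll adaptor Myd88 (139), the nuclear receptor Hr4 (135), the Ras regulator raskol (122), the dynein light chain ctp (114) and profilin (chic, 103). 5 of them were supported by every replicate, 6 by 2, 5 by 1 and 1 by none. The strongest not supported by all were dmrt99B, for a DM-domain transcription factor (134; ranks 3651, 8784 and 2175), dao (130; 2937, 5418 and 3581), raskol (4964, 5718 and 2888) and CG8206 (122; 4131, 6757 and 2684). In these 4, replicate 2 gave the weakest rank, outside the limit, and for raskol replicate 1 was outside it too. The last is Octalpha2R, an octopamine receptor gene (chr3R:18804572-18804987): no replicate had any candidate summit within 100 bp of its pooled summit. Support thus thinned toward the limit.

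**Figure D3:**
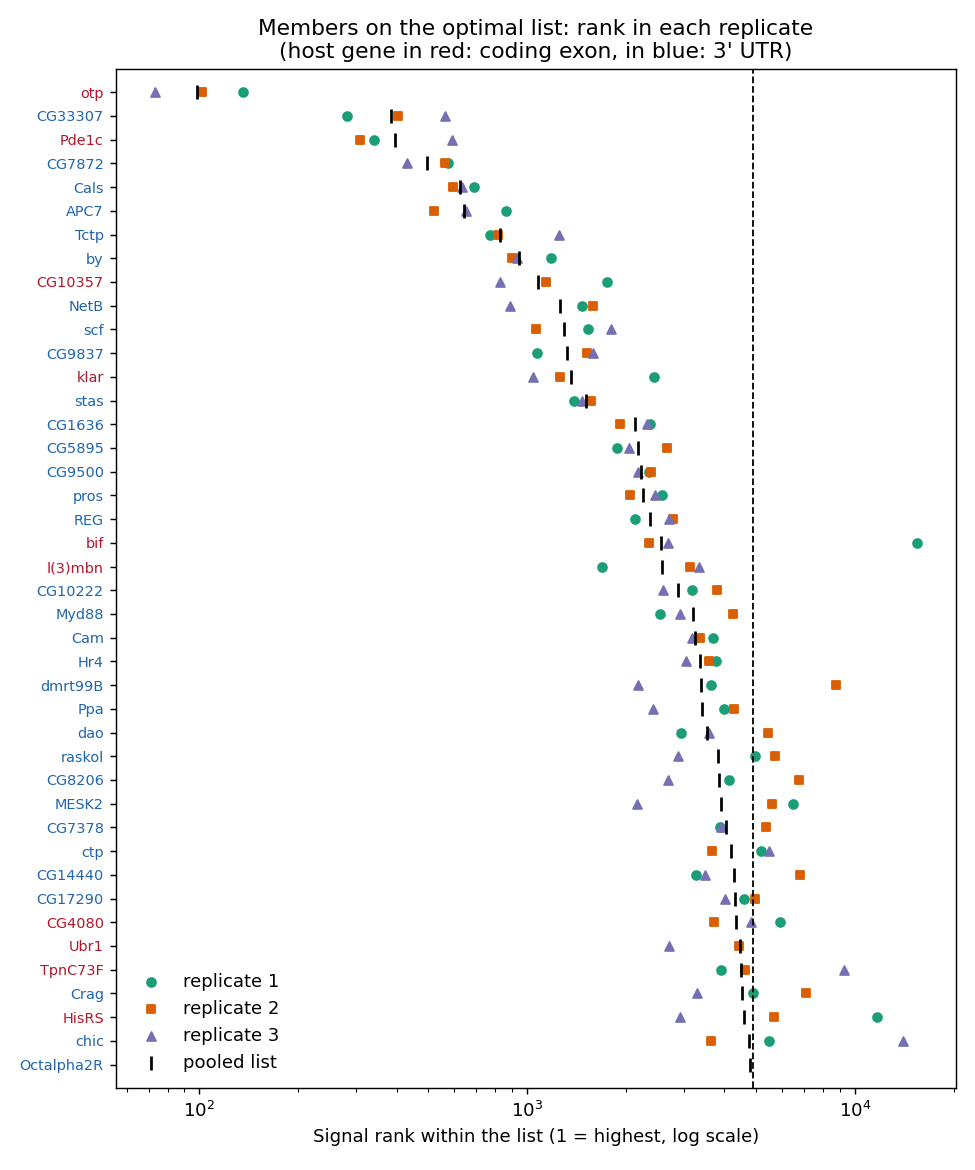
Signal rank of each of the 42 members on the optimal list in replicates 1, 2 and 3 (points) and in the pooled list (bars), on a log axis, with host genes in order of pooled signal and the limit of 4876 as a dashed line. Ranks of the first 19 lie left of the line in every replicate, bif is the first with a replicate to its right (15509), and Octalpha2R has no replicate point.

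Of the 42, 25 were supported by every replicate, 10 by 2, 6 by 1 and 1 by none. Among the 1299 members off the optimal list, none was supported by every replicate, 1 by 2, 28 by 1 and 1270 by none. List and support draw on the same libraries, so this split is a description too. Over all members this gave 25 of 1341 (1.86%, 1.27 to 2.74) supported by every replicate, 5 coding and 20 in 3' UTRs, beside 14.7% of all candidates. The ranks of members on the list went together between replicates, with Spearman's rho of 0.82, 0.78 and 0.76 for replicates 1 and 2, 1 and 3, and 2 and 3 (n = 40, 40 and 41 members, all chosen for high pooled signal, so a description only).

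The lower support of members was seen in each library. In replicates 1, 2 and 3, 2.98%, 3.06% and 3.73% of members were supported, against 17.9%, 18.5% and 18.8% of other candidates over 500 bp from a TSS. The difference was -15.2 ± 0.287 percentage points (SD, n = 3), lower in 3 of 3 replicates, and the exact two-sided sign-flip permutation test gave p = 0.25, the smallest that 3 replicates allow. Coding members were supported less often than 3' UTR members in each as well, by -6.77, -5.97 and -7.42 points (-6.72 ± 0.728, SD, n = 3, exact permutation p = 0.25). Any candidate of a replicate, however weak, lay within 100 bp of 51.2% ± 3.65 of members and 65.3% ± 4.43 of the other candidates (SD, n = 3).

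Just below the limit the members were mostly in 3' UTRs. The nearest were CG1690 (signal 100.4), Bre1 (100.2), which encodes a ubiquitin ligase for histone H2B, CG5984 (98.9), smal (97.6) and CG34276 (97.6). smal ranked 4308, 4683 and 5853 and was the member off the list that 2 replicates supported. The strongest coding members below the limit were EDTP (93.7), Snx27 (88.4), CG6638 (78.6), the tyrosine kinase gene Abl (78.4) and GstO3 (76.8). No coding member lay between 106 and 93.7, while 3' UTR members ran on without such a gap. By intervals instead of summits, 8 further members overlapped an optimal peak whose summit lay elsewhere.

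The candidates nearest the distance limit were weak on both sides of it. The members just outside it were CG32037, 501 bp from a TSS with signal 52.8, and CG13674, at 504 bp with 43.0. Just inside it, Brd7-9 and CG6431 at 500 bp had 46.2 and 35.5. None of these is near the optimal list. Members on the list lay 572 to 4667 bp (coding) and 586 to 13512 bp (3' UTR) from a TSS.

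The CTCF core was commonest at the coding members on the optimal list. It lay within 50 bp of the summit in otp, Pde1c, klar, Ubr1 and HisRS, which is 5 of 10 coding members (50%, 23.7 to 76.3), and in Cam, Hr4 and raskol, 3 of 32 in 3' UTRs (9.38%, 3.24 to 24.2), intervals that meet at their ends. Off the list it was present in 21 of 912 coding members (2.30%, 1.51 to 3.49) and 6 of 387 in 3' UTRs (1.55%). Optimal peaks in introns held it in 1.41%, between genes in 3.32% and within 500 bp of a TSS in 1.80%. The 8 members held 11 cores, centred 5 to 37 bp from the summit (median 17). The same letters read backwards, CGCGGNNGA, were in 0 of the 42 (at most 8.38% by the Wilson interval) and in 0.342% of all candidates, a comparison added after seeing the data. Over all candidates they are rarer than the core (1.47%). At so low a share, a count of 0 in 42 tells nothing about the core.

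Read the other way, the same counts show that members with the core more often reached the list. Of 35 members with a core, 8 did (22.9%, 12.1 to 39.0), and of 1306 without, 34 did (2.60%, 1.87 to 3.62). For coding members alone it was 5 of 26 (19.2%) against 5 of 896 (0.558%). For other candidates over 500 bp from a TSS it was 30.7% against 18.8%, and within 500 bp 35.9% against 32.6%, with overlapping intervals in the last. Replicates 1, 2 and 3 supported 14.3%, 17.1% and 25.7% of the members with a core and 2.68%, 2.68% and 3.14% of those without. The difference of 16.2 ± 5.69 points (SD, n = 3) was above 0 in 3 of 3 replicates (exact two-sided sign-flip permutation p = 0.25, the smallest possible). The split by core was made after the values were seen, and the pooled signal that sets the list comes from these same replicates. Their support is therefore a description and not separate evidence. Whether the core itself is what the tagged protein or another factor reads was not tested.

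**Figure D4:**
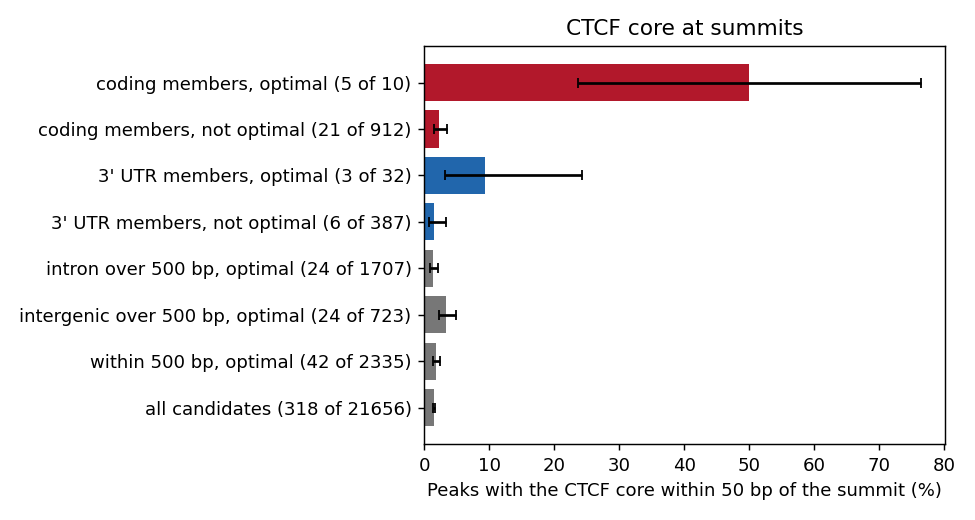
Share of peaks with AGNNGGCGC on either strand within 50 bp of the summit, in percent, with 95% Wilson intervals as error bars and counts in brackets. Coding members on the optimal list stand at 50% with a wide interval from 23.7 to 76.3%, 3' UTR members on the list at 9.38%, and the other sets between 1.41% and 3.32%.

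Base composition differed between the same groups. In a window of 101 bp at the summit, coding members on the list had 46.6% A+T ± 11.1 (SD, n = 10 regions), against 62.2% ± 8.72 in flanks centred 300 bp away. All optimal peaks together went the other way, with 67.0% at the summit and 55.4% in the flanks. 3' UTR members on the list had 64.0% ± 9.74 (n = 32) and flanks of 59.7% ± 7.54. The 5 coding members with a core had 30.7 to 48.5% A+T, and the 5 without it 50.5 to 62.4%, with no overlap. Mean A+T was also lower with the core elsewhere: 38.5% against 46.6% over all coding members, and 51.6% against 61.7% over all candidates. The GC-rich letters of the core lie inside the window measured, so the split is not independent of A+T. Coding members off the list were as GC-rich at the summit (46.4% ± 7.68, n = 912) but had flanks of 53.4%.

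**Figure D5:**
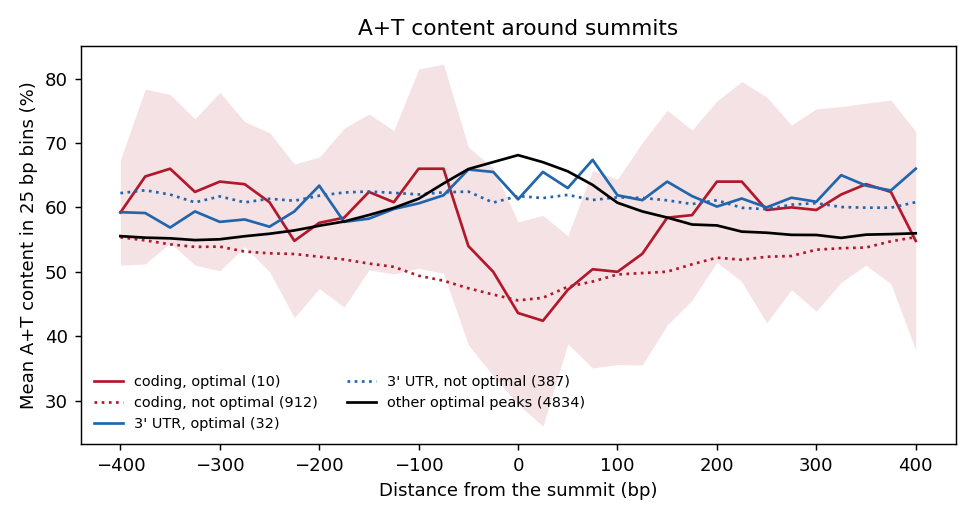
Mean A+T content in bins of 25 bp against the distance from the summit, for members on and off the optimal list by gene part and for the other 4834 optimal peaks, with the SD over regions shaded for the 10 coding members on the list. Coding members dip at the summit, 3' UTR members stay near 60%, and the other optimal peaks have their highest A+T there.

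Most coding members on the list sat in short stretches of coding sequence and near an end of them. Such an end can be a start or stop codon inside an exon as well as an exon end. The median coding stretch around the summit was 163.5 bp on the list (n = 10) and 626.5 bp off it (n = 912). It was under 200 bp for 7 of 10 (70%) and for 136 of 912 (14.9%). Summits lay within 25 bp of an end of the stretch in 6 of 10 (60%) and 121 of 912 (13.3%). Those 6 were the 5 without a core, printed above, and Pde1c. A peak spans 416 bp in most cases, more than the whole stretch in 8 of 10, so most of these peaks also cover non-coding bases. Off the list all 912 peaks span 416 bp and the median summit lay 124 bp from an end of its stretch. Many of those peaks therefore run past their stretch too.

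For 3' UTR members, position along the transcript differed less. The median 3' UTR stretch was 1413.5 bp on the list and 1571 bp off it, and the median distance from the stop codon 724.5 and 754 bp. The poly(A) signal AATAAA, on the strand of the gene, lay within 50 bp of the summit in 5 of 32 on the list (15.6%) and 61 of 387 off it (15.8%). A transcript end lay within 200 bp in 11 of 32 (34.4%) and 95 of 387 (24.5%).

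The other motifs sought within 50 bp on both strands were in 4 or fewer of the 42 members on the list. The DRE (TATCGATA) and the E-box CACGTG were in 0 of 42 members there, beside 1.30% and 1.03% of all candidates. The TATA box TATAAA was in 4 (9.52%, beside 16.4%). The hexamer CAGCTG was in 3 (7.14%, beside 4.15%), and the GAGA repeat GAGAGAG in 2 (4.76%, beside 1.27%). The homeodomain core TAATTA was in 1 member, beside 7.56% of all candidates. The Zelda site CAGGTAG and the AP-1 site TGANTCA were also in 1 each, beside 0.494% and 2.28%. Within 100 bp, TATAAA was in 13 of the 42 (31.0%, 19.1 to 46.0), beside 29.4% of all candidates and 38.4% of the other optimal peaks. In that window the CTCF core was in 10 (23.8%, 13.5 to 38.5), beside 2.50% of all candidates, and TAATTA in 3 (7.14%), beside 14.6%.

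The X chromosome held more of the listed members than its share of all members. Of the 42, 16 (38.1%) lay on X, which held 14.3% of the 1341 members, 22.9% of the 3' UTR members and 18.5% of all optimal peaks. The mix of gene parts differed too: 96 of the 192 members on X were in 3' UTRs, against 419 of 1341 genome-wide. In 3' UTRs, 13 of 96 members on X reached the list (13.5%, 8.09 to 21.8), as against 19 of 323 elsewhere (5.88%, 3.8 to 9.0), with intervals that overlap. For coding members it was 3 of 96 on X (3.13%) and 7 of 826 elsewhere (0.847%). Over all candidates, 24.6% on X reached the list, beside 22.5% genome-wide. The embryos were of mixed sex.

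The 1341 members had 1172 host genes, 8.40% of the 13945 protein-coding genes, and the 42 on the list had 42 different ones. Hosts with the most members had weak ones: corto, a Polycomb and trithorax cofactor gene, and lola, for a BTB transcription factor, held 7 each, with highest signals of 57.9 and 56.8. CG1888 held 6, and Cam and pum, for an RNA-binding repressor of translation, 4 each. Of these, Cam had 1 on the list.

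Hosts were also counted over 7 lists of genes. Members off it lay in 36 of 232 genes with at least 3 C2H2 fingers (15.5%), among them Kr, zld and Cp190, in 8 of 20 chosen muscle and cytoskeleton genes (40%; Mhc, sls, bt and Act5C among them) and in 5 of 21 Polycomb and trithorax genes (Trl, osa, mor, Su(z)2 and Su(z)12). They lay in 4 of 92 cytosolic and 1 of 73 mitochondrial ribosomal protein genes, 5 of 120 cuticle genes, and aos and rho of 13 matched Notch and EGFR pathway genes. The Notch ligand gene Delta, not counted there because the list gives it by another symbol, held 3 members off the optimal list. Of the 61 hosts in these 7 lists (569 genes in all), 0 had a member on the optimal list, beside 42 of all 1172 hosts (3.58%). At so low a share, a count of 0 in 61 hosts does not set these lists apart. The lists are not complete: TpnC73F, bif, chic and ctp, named above with muscle or cytoskeletal roles, are on the optimal list and in none of them. Gene length was not adjusted for in these counts.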

How the data were processed

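The candidate lists of 3 replicates, the pooled list and the optimal list were used on dm6; the dm3 lists were not used. Per the deposited README files, candidates were called on each replicate, and on all 3 pooled, against a control, and the optimal list came from these by the irreproducible discovery rate (IDR). For the aligner, the caller and the IDR limit, nothing is given in the sources used here. Signal values are those the authors deposited per peak, on each list's own scale, and were compared within lists only. Depth is unknown.

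Summits were placed on Ensembl BDGP6.54 (release 115) gene parts, coding before 3' UTR, and on the RefSeq genome of the same assembly, where 99.9% of 16213 annotated start codons read ATG. A member reached the optimal list if a summit of it lay within 50 bp. The members, gene lists and motifs were chosen with earlier results of these data known, so nothing here is independent of them. Shares carry 95% Wilson intervals, and replicates were compared by exact sign-flip permutation. No peak was repeated with the same interval and signal between replicates. Named members are the 15 of highest signal per gene part on the list, the 5 highest off it, up to 5 not supported by every replicate, and those nearest the distance limit. All other members named were chosen after their values were seen, and so were the splits by core, chromosome and edge of the coding stretch. Python 3.11.15, NumPy 2.4.6, pandas 2.3.3 and SciPy 1.17.1 were used, with steps tested on simulated data. Alternatives were other TSS distances, gene part rules, matching distances, windows and left-out replicates.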

Additional observations from a re-analysis of the deposited data

How the results depend on the processing

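The direction of every replicate difference was kept under each alternative run. Leaving out each replicate in turn, members minus other candidates ranged from -15.3 to -15.0 points and coding minus 3' UTR members from -7.10 to -6.37. Members with minus without the core ranged from 13.0 to 18.5 points. The share of members supported by every remaining replicate ranged from 2.01 to 2.31%, and it cannot fall when a replicate is left out. Among the main results, a value was taken to move if it left the interval of the main value, or changed by over 1.5 times for a count. Those that moved were the share of all members on the optimal list without the X chromosome (2.26%) and the share of coding members when the summit had to lie at least 50 bp inside its stretch (0.587%). The CTCF letters read backwards (0 of the 42) are a different string, so that count is not an alternative processing of the core. Windows of 100 bp to each side contain the narrower ones, so a motif count can only stay or rise. In them 15 other motif counts rose by over 1.5 times, counting CACGTG on the list, which went from 0 to 1. TATAAA went from 4 to 13 of the 42 and TAATTA from 1 to 3, while over all members the CTCF core went from 35 to 54 and TAATTA from 43 to 86. The core on the list went from 8 to 10. The number of members ranged from 987 (over 1000 bp from a TSS) to 1613 (over 250 bp). No paired analysis was possible because there is only 1 group and so no pairing between groups; the differences above were taken within each replicate. With 10 coding members on the list, shares among them are coarse, and with depth unknown no single peak has an error estimate.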
